A study of Mus musculus with 16 samples.

Results

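The genes described here encode the protein subunits of the mitochondrial ribosome, and they were followed through the amplification of single-cell amounts of RNA. Members were all probe sets whose only gene symbol in the platform annotation begins with Mrpl or Mrps and a number. This gave 156 of the 45037 probe sets that are not Affymetrix controls, and 76 of 18193 genes. Of the 76 genes, 47 carry Mrpl symbols, named for the large subunit, with 104 probe sets, and 29 carry Mrps symbols, named for the small subunit, with 52. All 76 symbols were found in the mouse RefSeq gene table.

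The RNA was a single preparation of total RNA from E14tg2a, a mouse embryonic stem cell line. In the amplified group (n = 8 arrays), the RNA was diluted to 10 pg, about the content of a cell, and its cDNA was made and PCR-amplified separately for each array by the method named V1V3. In the nonamplified group (n = 8 arrays), 5 µg of the same RNA was labelled directly. Both groups were labelled with biotin by the Affymetrix one-cycle assay, and no genotype, treatment or time differed between them. The arrays are therefore technical replicates of 1 RNA, and p-values measure only the spread between technical replicates. The question the comparison addresses is how far the level of each of these genes was kept, and how evenly, when it was measured from 10 pg.

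Mitochondria have ribosomes of their own, built from RNAs encoded in mitochondrial DNA and from proteins that are all encoded in the nucleus, made in the cytosol and imported. These ribosomes translate the few mRNAs of mitochondrial DNA, which encode core subunits of the respiratory chain and of ATP synthase. Some of the proteins have bacterial counterparts and others occur only in mitochondria. Symbols do not always give the place of a protein: in structures of the mammalian mitochondrial ribosome, Mrps30 and Mrps18a lie in the large subunit, and Mrps36 is now placed in the 2-oxoglutarate dehydrogenase complex.

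Promoters are a sequence feature of these genes that the choice of members did not use. RefSeq windows (GRCm38.p6) of 300 bases, from 250 before to 50 after the start, were on hand for 67 of the 76 genes, and both strands were searched. GCGCANGCG, a motif of NRF1, a factor known to drive nuclear genes for mitochondria, was in the windows of 15 genes, or 22.4%, against 9.63% of 17491 protein-coding genes. With 1 more letter it was in 12 genes, or 17.9%, against 7.17%. CCGGAAGT, a motif of ETS factors such as GABP, was in 12 genes, or 17.9%, against 5.69%. AAGATGGCG, a motif of YY1, was in 8 genes, or 11.9%, against 2.14%. CCAAT was in 38.8% of the genes against 42.3%, and TATAAA in 7.46% against 14.8%. In all, 33 genes held at least 1 of the first 3 motifs, and in 0 windows did 2 of these 3 overlap. Matches are descriptions of letters and not of binding. Since both groups of arrays hold the same RNA, the promoters bear on no difference between them.

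A pair of promoters is shown for each of the first 3 motifs, chosen after the values were seen, as 150 bases that end just before the start, in the direction of the gene. Capitals mark the match, on either strand. For NRF1 these are Mrpl17, with a pair of matches (chr7:105811088-105811237 on the reverse strand), and Mrpl57 (chr14:57826089-57826238 on the forward strand), both high and even on amplified arrays. For ETS factors they are Mrpl27 (chr11:94653641-94653790 on the forward strand), which was low after amplification, and Mrpl51 (chr6:125192050-125192199 on the forward strand), one of the brightest members. For YY1 they are Mrps11 (chr7:78782981-78783130 on the forward strand) and Mrpl36 (chr13:73330859-73331008 on the forward strand).
Mrpl17: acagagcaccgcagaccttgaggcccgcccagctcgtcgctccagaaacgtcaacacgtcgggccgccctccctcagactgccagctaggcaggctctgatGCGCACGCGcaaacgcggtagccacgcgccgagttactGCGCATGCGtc
Mrpl57: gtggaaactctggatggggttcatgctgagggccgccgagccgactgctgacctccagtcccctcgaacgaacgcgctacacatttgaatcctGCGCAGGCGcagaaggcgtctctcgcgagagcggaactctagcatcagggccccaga
Mrpl27: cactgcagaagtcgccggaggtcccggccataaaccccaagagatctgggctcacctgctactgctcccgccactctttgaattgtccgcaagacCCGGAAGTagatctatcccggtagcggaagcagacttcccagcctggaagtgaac
Mrpl51: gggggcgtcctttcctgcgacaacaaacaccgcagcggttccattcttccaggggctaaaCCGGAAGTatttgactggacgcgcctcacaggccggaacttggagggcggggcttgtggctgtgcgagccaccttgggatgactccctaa
Mrps11: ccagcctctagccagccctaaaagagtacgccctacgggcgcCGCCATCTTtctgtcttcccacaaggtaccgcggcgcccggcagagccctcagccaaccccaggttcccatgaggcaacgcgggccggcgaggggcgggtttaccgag
Mrpl36: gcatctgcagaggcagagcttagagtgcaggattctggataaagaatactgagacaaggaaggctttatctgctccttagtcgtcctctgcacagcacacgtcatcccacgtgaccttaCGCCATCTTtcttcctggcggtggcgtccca

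Values are linear intensities, and differences are means of log2(intensity + 16) on amplified minus nonamplified arrays, a scale that understates changes of dim probe sets. Brightness depends on the probes as well as on the RNA, so the order of intensities between genes is not an order of transcript levels. Over all probe sets, the median intensity of an array was 33.9 to 36.7 in the amplified group and 49.7 to 53.8 in the nonamplified group, so array level moves with the groups and its part in the results was examined through other scalings and not otherwise tested. Over the 156 members, it was 258 to 475 and 352 to 374. On the nonamplified arrays, 10 embryonic stem cell markers had mean intensities of 573 to 8422, 7 fibroblast feeder markers 14.5 to 82.0 and the 4 blood cell markers found 22.1 to 74.0. With 8 arrays in a group, their number sets the precision.

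After amplification the members divided into high and low genes, with more high than low. For each gene the probe set with the highest nonamplified mean was taken, and all 76 passed the filter on low values. Amplified arrays were higher in 38 genes (background 23.1% of 13438 genes) and lower in 16 (background 30.3%), and 22 were not called, at an adjusted p under 0.05 by limma with Benjamini-Hochberg adjustment over 27022 probe sets. Differences of at least 2-fold were called in 29 genes upward (background 11.7%) and 14 downward (background 20.3%). The median difference was 0.68 over the 76 genes and -0.17 over all tested genes. The members were brighter than most genes, with a median nonamplified intensity of 572 against 136. In the band of nonamplified intensity from 395 to 787, which holds the middle 38 members, 50% were higher and 21.1% lower, against 24.7% and 30.2% of all 1539 genes there.

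By probe set, 135 of the 156 members passed the filter and 21 did not. Of the 135, 87 were called in either direction (background 57.5%), 58 higher (background 24.7%) and 29 lower (background 32.8%). The 8 amplified values lay apart from the 8 nonamplified values for 58 probe sets (background 33.6%), 37 above and 21 below. Over all 27022 tested probe sets, 3998 lay above and 5070 below. The median difference over all 156 probe sets, tested or not, was 0.28, against -0.17 over all probe sets.

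These counts depend on how the arrays are scaled to each other, which the deposited values leave unstated. Of the genes called, 70.4% were higher with the values as deposited, 59.2% after quantile normalization, 78.6% with each array centred on its median, 78.6% when arrays were scaled to the brighter 50% of all probe sets, and 59.6% when scaled on the hybridization controls. Among all probe sets called, the shares higher were 43.0%, 50.9%, 66.4%, 63.7% and 23.9% in the same order, so the members stood nearest to the background after quantile normalization. The median difference over all probe sets tested under each scaling was -0.17, -0.02, 0.30, 0.24 and -0.53 in that order. That over the members was 0.68, 0.15, 1.23, 1.15 and 0.25. Over all 156 probe sets the median fell below 0, to -0.03, when scaled on the hybridization controls. Under all 5 scalings 27 genes were higher and 12 lower, and 0 genes were called in both directions. The same count over all genes is not given here, so these numbers are not set against a background.

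**Figure D1:**
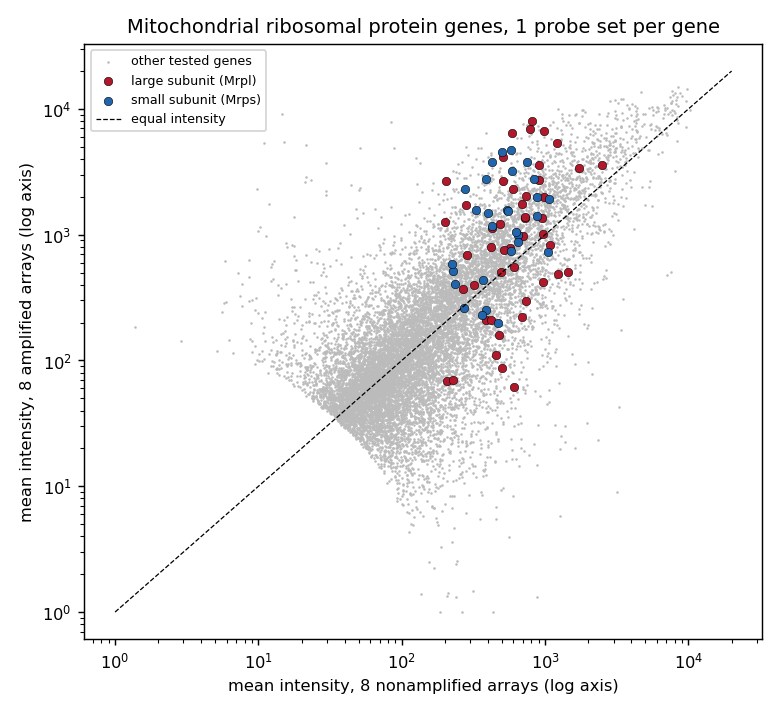
Mean intensity on the 8 amplified arrays against that on the 8 nonamplified arrays, both on log axes, for 1 probe set per gene. Large and small subunit genes are coloured, other tested genes are grey, and the dashed line marks equal intensity. Members with like nonamplified intensities spread over more than a decade on the amplified axis, with 38 called higher and 16 lower.

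Among the 47 Mrpl genes, 24, or 51.1%, were higher, 13, or 27.7%, lower and 10 not called, with a median difference of 0.45. Of all tested genes, 23.1% were higher and 30.3% lower. The highest differences belonged to Mrpl54, Mrpl34, Mrpl52 and Mrpl57. Mrpl54, a subunit found only in mitochondria, had nonamplified intensities of 191 to 226 (median 202) and amplified intensities of 857 to 4188 (median 3115). Every amplified array was above every nonamplified one, and the difference was 3.44 ± 0.28 (SE, n = 8 and 8, adjusted p = 1.61e-08 by limma).

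Mrpl34, which has a bacterial counterpart, had nonamplified intensities of 538 to 626 (median 580) and amplified intensities of 5485 to 8017 (median 6036). The groups did not overlap and the amplified values were close together, with a difference of 3.42 ± 0.10 (SE, adjusted p = 2.52e-14 by limma). Mrpl52, a subunit found only in mitochondria, went from 750 to 885 (median 817) to 4980 to 10130 (median 8000). All its amplified values lay above, and the difference was 3.27 ± 0.12 (SE, adjusted p = 1.06e-12 by limma). Mrpl57 had intensities of 730 to 819 (median 788) without amplification and 5819 to 8800 (median 7033) with it. These values were again apart, by 3.11 ± 0.09 (SE, adjusted p = 3.03e-14 by limma).

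Mrpl17 and Mrpl20, with bacterial counterparts, were also high and even. For Mrpl17 the nonamplified intensities were 878 to 1034 (median 991) and the amplified ones 5092 to 7940 (median 7202). The groups lay apart by 2.73 ± 0.10 (SE, adjusted p = 1.13e-12 by limma). For Mrpl20 the intensities were 819 to 1127 (median 869) and 1961 to 3544 (median 2732). All amplified arrays were above all nonamplified ones, by 1.55 ± 0.11 (SE, adjusted p = 2.83e-09 by limma).

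At the low end stood Mrpl21, the counterpart of a bacterial large subunit protein. Its nonamplified intensities were 579 to 639 (median 611) and its amplified ones 9.17 to 110 (median 55.8). All 8 amplified arrays lay below, and the difference was -3.21 ± 0.29 (SE, adjusted p = 5.89e-08 by limma). Mrpl37, found only in mitochondria, had 463 to 533 (median 505) without and 35.1 to 125 (median 86.7) with amplification. The groups did not overlap, and the difference was -2.38 ± 0.16 (SE, adjusted p = 1.35e-09 by limma).

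Mrpl50 followed with nonamplified intensities of 430 to 498 (median 451) and amplified ones of 18.8 to 218 (median 107). Its amplified arrays were all below, by -2.16 ± 0.35 (SE, adjusted p = 5.54e-05 by limma). Mrpl27, whose bacterial counterpart lies at the peptidyl transferase centre, had 640 to 718 (median 691) and 1.07 to 411 (median 254). Here the amplified arrays were low but far apart, one of them near the lowest value of the table, and the difference was -2.09 ± 0.55 (SE, adjusted p = 0.0038 by limma). Mrpl9, with a bacterial counterpart, had 210 to 256 (median 225) and 3.66 to 189 (median 56.4). No amplified array reached the nonamplified range, and the difference was -1.87 ± 0.38 (SE, adjusted p = 0.000527 by limma).

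The 6 members with the highest nonamplified mean are all large subunit genes, and they took different directions. Mrpl15, the brightest, is the counterpart of a bacterial protein and had 2205 to 2699 (median 2514) and 2111 to 5814 (median 3462). Its groups overlapped and the call was marginal, at 0.45 ± 0.18 (SE, adjusted p = 0.0483 by limma). The call was lost under 7 of the 11 other settings that hold this probe set and in 13 of the 16 fits that left out 1 array, and after quantile normalization the difference was -0.40 (adjusted p = 0.0664 by limma).

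Mrpl51, found only in mitochondria, had 1615 to 1836 (median 1732) and 2511 to 4359 (median 3344). These did not overlap, at 0.94 ± 0.11 (SE, adjusted p = 9.28e-07 by limma), though after quantile normalization the difference was 0.12 and not called. Mrpl24, with a bacterial counterpart, had 1394 to 1490 (median 1445) and 119 to 833 (median 501). All amplified arrays were below, with a difference of -1.62 ± 0.27 (SE, adjusted p = 7.33e-05 by limma).

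Mrpl42 also stood below, with 1192 to 1251 (median 1222) and 271 to 745 (median 437). Its groups lay apart by -1.42 ± 0.21 (SE, adjusted p = 2.18e-05 by limma). Mrpl39 stood above, with 1155 to 1285 (median 1207) and 3178 to 7320 (median 5984). The groups lay apart by 2.09 ± 0.16 (SE, adjusted p = 1.05e-08 by limma). Mrpl18, with a bacterial counterpart, had 1020 to 1135 (median 1082) and 420 to 1970 (median 616). Here 6 amplified arrays were below the nonamplified range and 2 above it, and the difference of -0.57 ± 0.25 (SE, adjusted p = 0.065 by limma) was not called. It was called lower after quantile normalization (-1.20, adjusted p = 0.000129 by limma), on the hybridization controls (-0.99, adjusted p = 0.00702), with weights per group (adjusted p = 0.0243) and without amplified replicate 7 or 8 (adjusted p = 0.0278 and 0.0013).

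Mrpl12, the stalk protein that in bacteria recruits translation factors, had 929 to 1029 (median 959) and 144 to 2782 (median 716). Its amplified arrays lay on both sides, so that the linear mean was higher with amplification, 1014 against 967, while the log2 difference was -0.48 ± 0.48 (SE, adjusted p = 0.411 by limma) and not called. The log2 difference was 0.07 with arrays centred on their medians and -1.06 after quantile normalization, where it was called (adjusted p = 0.0368 by limma). The other Mrpl genes ran from -2.01 for Mrpl10, the partner of Mrpl12 in the stalk, to 2.87 for Mrpl43. Mrpl58, a peptidyl-tRNA hydrolase built into the large subunit, was higher by 1.84 (adjusted p = 0.00641 by limma).

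**Figure D2:**
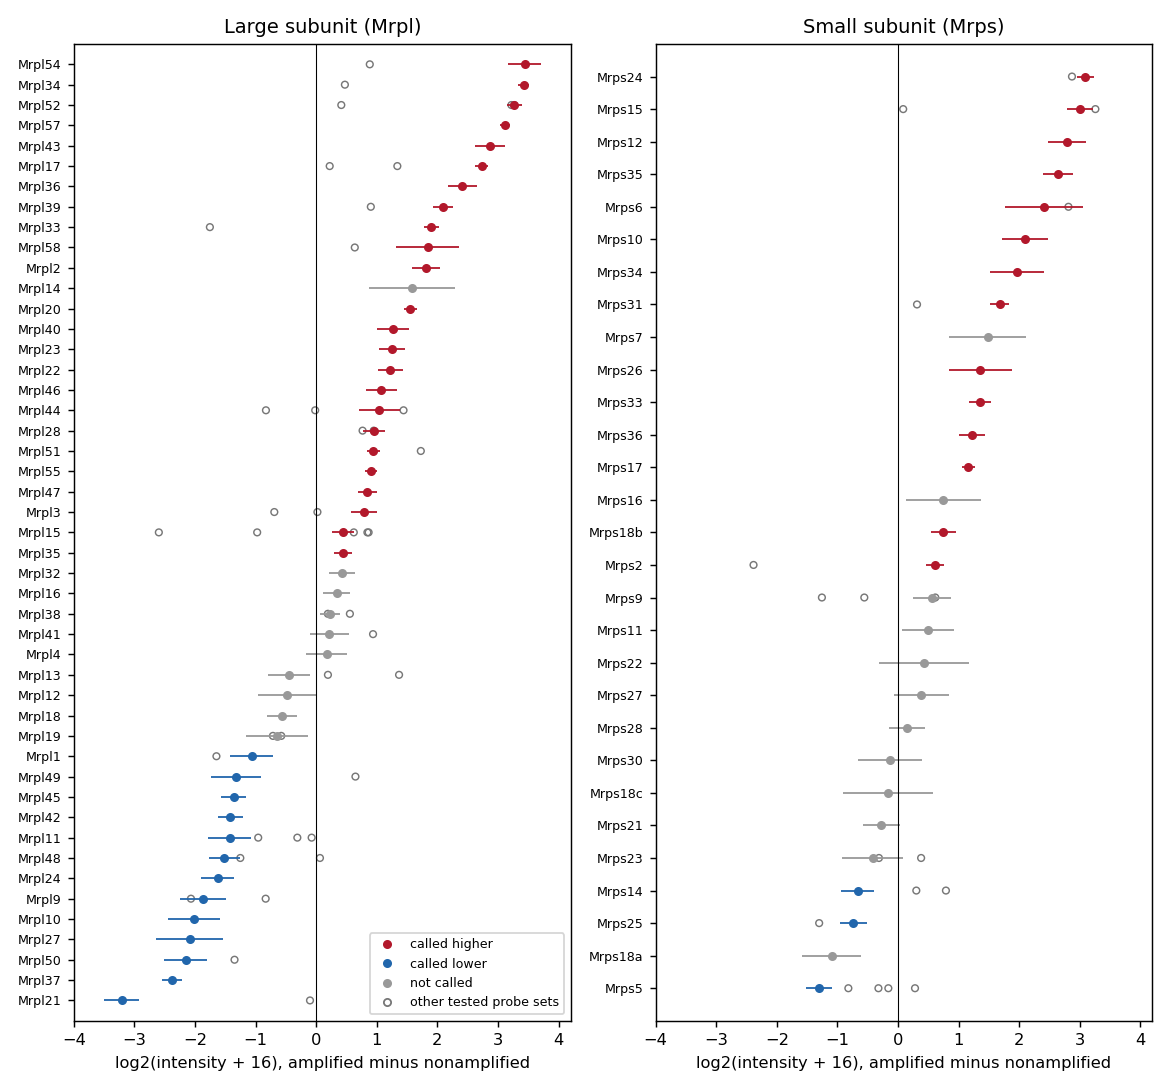
Difference of mean log2(intensity + 16), amplified minus nonamplified, for each member gene, with large subunit genes at left and small subunit genes at right. Filled points are the probe set chosen for the gene with its SE, coloured by call, and open circles are its other tested probe sets. Mrpl genes run from -3.21 to 3.44 and Mrps genes from -1.30 to 3.09, and several genes have open circles far from the filled point.

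Among the 29 Mrps genes, 14, or 48.3%, were higher, 3, or 10.3%, lower and 12 not called, with a median difference of 0.75. The shares over all tested genes were 23.1% higher and 30.3% lower. The difference between the subunits was not tested. The 3 lower genes were Mrps5 (-1.30, adjusted p = 7.62e-05 by limma), Mrps25 (-0.74, adjusted p = 0.00917 by limma) and Mrps14 (-0.66, adjusted p = 0.0479 by limma). Mrps5 was lower under all 5 scalings, while Mrps25 and Mrps14 were not called with arrays centred on their medians or scaled to the brighter 50%. Mrps24, with a bacterial counterpart, was the highest, with 479 to 557 (median 491) and 2974 to 6061 (median 4598). Its groups lay apart by 3.09 ± 0.14 (SE, adjusted p = 8.43e-12 by limma).

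Mrps15, with a bacterial counterpart, had 385 to 462 (median 428) and 1955 to 6683 (median 3290). All amplified arrays were above, by 3.0 ± 0.21 (SE, adjusted p = 2.46e-09 by limma). Mrps12, the counterpart of the bacterial protein at the decoding centre, had 536 to 622 (median 583) and 1295 to 7439 (median 5006). The groups did not overlap, though the amplified arrays were far apart, and the difference was 2.78 ± 0.31 (SE, adjusted p = 8.15e-07 by limma). Mrps34, found only in mitochondria, had 691 to 823 (median 738) and 352 to 6449 (median 3454). The amplified arrays were above with the exception of 1 below, and the difference was 1.96 ± 0.45 (SE, adjusted p = 0.00132 by limma).

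The 3 paralogs of bacterial S18, which occupy different places in the ribosome, were measured unlike each other. Mrps18a had 357 to 411 (median 388) and 27.4 to 586 (median 211). Of its amplified arrays 5 were below the nonamplified range, and the difference of -1.09 ± 0.49 (SE, adjusted p = 0.0671 by limma) was not called. It was called lower after quantile normalization (adjusted p = 0.0221 by limma), when scaled on the hybridization controls (0.0125), with weights per group (0.0159) and without amplified replicate 1, 2 or 8.

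Mrps18b had 1006 to 1146 (median 1068) and 701 to 2644 (median 2043). Only 1 amplified array was below the nonamplified range, and the difference was 0.75 ± 0.20 (SE, adjusted p = 0.00499 by limma). It was 0.00 after quantile normalization and 0.32 when scaled on the hybridization controls, and was called under neither. Mrps18c had 594 to 718 (median 638) and 1 to 2797 (median 869). Its amplified arrays spread over the whole range, and the difference was -0.17 ± 0.74 (SE, adjusted p = 0.86 by limma). It turned to 0.56 (adjusted p = 0.13 by limma) without amplified replicate 1, whose intensity was 1.

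**Figure D3:**
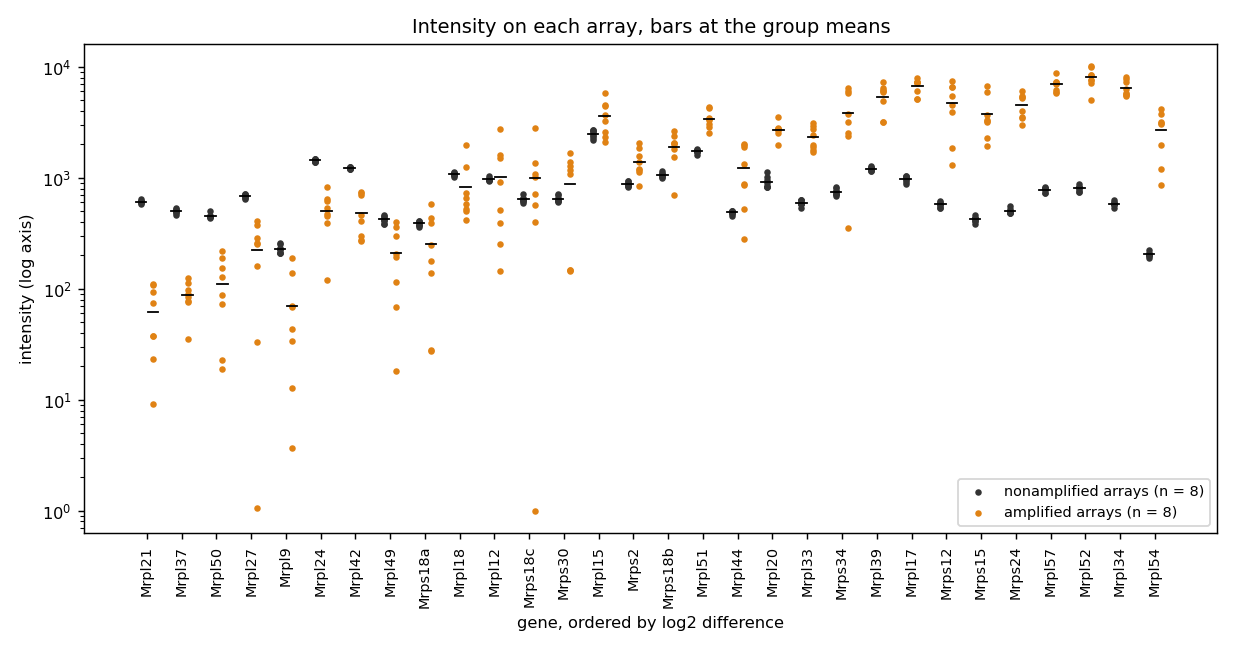
Intensity on every array, on a log axis, for the 30 genes chosen by the rule for named genes, ordered by log2 difference. Black points are the 8 nonamplified and orange points the 8 amplified arrays, with bars at the linear means. Mrpl57 stays within 5819 to 8800 on amplified arrays, while Mrps18c runs from 1 to 2797.

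The amplified arrays of these technical replicates differed far more among themselves than the nonamplified ones. The median SD of log2(intensity + 16) over the 76 genes was 0.74 on amplified and 0.066 on nonamplified arrays. On amplified arrays it was 0.69 for the Mrpl and 0.92 for the Mrps genes. The SD of a gene was larger on amplified arrays for 76 of 76 members. The same held for 12374 of all 13438 tested genes, and for 1529 of the 1539 with a nonamplified intensity of 395 to 787. Among genes of the same intensity band, 395 to 787, the median was 0.86 for 38 members and 0.85 for all 1539 tested genes, so the members' spread was near that of other genes of their level. Relative to the nonamplified range, all 8 amplified arrays were above it for 27 genes (background 13.3%) and all 8 below it for 12 (background 16.2%). That is 39 genes without overlap (background 29.5%). Amplified arrays fell on both sides for 32 genes, a count given here without a background.

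Among the 38 members with a nonamplified mean above the members' median of 572, the 4 most even genes were Mrpl57, Mrpl34, Mrpl20 and Mrpl17, with SDs of 0.20, 0.22, 0.23 and 0.25. All 4 were among those with higher amplified values. Among the same 38, the 4 least even were Mrps18c, Mrpl27, Mrps30 and Mrpl12, with SDs of 2.22, 1.64, 1.57 and 1.42. Over all 76 members the largest SD was 2.24, that of Mrps22. Mrps30 had nonamplified intensities of 601 to 710 (median 634) and amplified ones of 145 to 1687 (median 1128). Of its amplified arrays 3 were below the nonamplified range, and the difference of -0.14 ± 0.53 (SE, adjusted p = 0.845 by limma) changed sign without amplified replicate 2, 3 or 4, to 0.13 to 0.14. Across the 76 genes, the SD on amplified arrays had a Pearson correlation of -0.34 and a Spearman correlation of -0.38 with the log2 nonamplified mean. The points share the same 16 arrays and genes are not independent replicates.

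**Figure D4:**
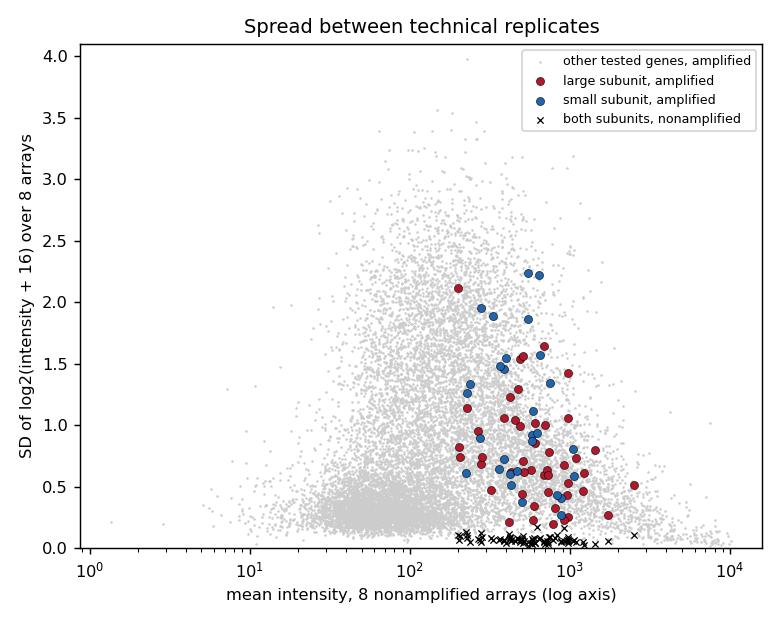
SD of log2(intensity + 16) over 8 arrays against the mean nonamplified intensity on a log axis. Coloured points are member genes on amplified arrays, black crosses the same genes on nonamplified arrays and grey points other tested genes on amplified arrays. The crosses stay under 0.17 and the coloured points reach 2.24.

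Few members were lost on an array. A dropout here means that a probe set ranked in the brighter 50% by nonamplified mean, but under the 25th percentile on an array. Of 128 member probe sets at that level, 14 dropped out on at least 1 amplified array and 0 on all 8, counts given here without a background. On at least 4 amplified arrays, 3 dropped out, or 2.34% (background 13.9%). These 3 were not the brightest probe sets of their genes: they were a dim probe set each of Mrpl15, Mrpl21 and Mrps25, with nonamplified means of 66.3, 74.0 and 81.4. The members are brighter than the probe sets they are counted against, with a median of 425 against 139. In the band from 241 to 700, 0 of 64 members and 6.20% of 4697 probe sets dropped out on at least 4 arrays. Each amplified array lost 2 to 7 member probe sets (mean 4.13, SD 1.55, n = 8), and each nonamplified array 0. Over all probe sets at that level, the share lost was 13.2% to 15.5% on amplified arrays and at most 0.10% on nonamplified arrays.

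Where a gene had several probe sets, they did not always give the same answer. Of the 33 genes with at least 2 tested probe sets, 10 had all of them called the same way and 5 had some called in opposite directions. The median range of differences within a gene was 1.46. The same numbers over all genes with several tested probe sets are not given here, so these have no background. Opposite calls were found for Mrpl33, Mrpl15, Mrps2, Mrpl44 and Mrpl49. Several named genes without opposite calls also had wide ranges. These were Mrps15 (0.09 to 3.26), Mrpl21 (-3.21 to -0.10), Mrpl34 (0.47 to 3.42), Mrpl52 (0.41 to 3.27), Mrpl54 (0.88 to 3.44) and Mrpl17 (0.22 to 2.73). The smallest differences of Mrps15, Mrpl17, Mrpl34 and Mrpl21 came from dim probe sets, with nonamplified means of 32.6, 35.7, 45.3 and 45.7. The filter lies at about 33.7, so these probe sets can show little change. Those of Mrpl54 and Mrpl52 had nonamplified means of 62.1 and 123. Ranges were narrower for Mrps24 (2.87 to 3.09), Mrpl51 (0.94 to 1.73), Mrpl50 (-2.16 to -1.35), Mrpl39 (0.90 to 2.09) and Mrpl9 (-2.07 to -0.83). Both tested probe sets of Mrps24 are of type _s_at, whose probes can match other sequences or each other's. The probe set chosen for the gene was of type _x_at or _s_at for 9 member genes. Mrps24, Mrps12, Mrpl37, Mrpl15 and Mrpl44 were among them.

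For Mrpl33, with a bacterial counterpart, the brighter probe set had intensities of 537 to 633 (median 587) and 1694 to 3110 (median 2205). It was higher by 1.90 ± 0.13 (SE, adjusted p = 1.57e-09 by limma), with no overlap. The dimmer one had 65.9 to 115 (median 87.8) and 1.40 to 24.0 (median 16.6), and was lower by -1.76 ± 0.16 (SE, adjusted p = 7.32e-08 by limma), also with no overlap.

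For Mrps2, with a bacterial counterpart, the brighter probe set had 834 to 938 (median 869) and 845 to 2060 (median 1290), and was higher by 0.61 ± 0.15 (SE, adjusted p = 0.00225 by limma). Its ranges overlapped, and the difference was -0.07 after quantile normalization and 0.18 on the hybridization controls, called under neither. The dimmer one had 283 to 348 (median 302) and 31.2 to 70.0 (median 44.2), and was lower by -2.38 ± 0.13 (SE, adjusted p = 9.74e-11 by limma), with no overlap.

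The other 3 genes were alike in this. The brighter and the dimmer probe set of Mrpl49, found only in mitochondria, had differences of -1.32 ± 0.41 (SE, adjusted p = 0.0118 by limma) and 0.65 ± 0.19 (SE, adjusted p = 0.00746 by limma). Mrpl44, a subunit with a fold like that of ribonuclease III, ranged over 4 probe sets from -0.83 ± 0.23 (SE, adjusted p = 0.00513 by limma) to 1.44 ± 0.33 (SE, adjusted p = 0.00118 by limma). The 6 probe sets of Mrpl15 ranged from -2.60 ± 0.73 (SE, adjusted p = 0.00597 by limma) to 0.86 ± 0.26 (SE, adjusted p = 0.0103 by limma). The brightest probe set of Mrpl44 was not called after quantile normalization or on the hybridization controls, nor that of Mrpl49 with arrays centred on their medians or scaled to the brighter 50%. Where on the transcript each probe set lies was not examined here.

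The brightest and the next probe set of a gene, 33 pairs in all, were correlated over the 8 amplified arrays after the other results were known. The median Pearson correlation was 0.79 for the 33 pairs, 0.10 for the same pairs on nonamplified arrays and 0.03 for 2850 pairs of different member genes. After Benjamini-Hochberg adjustment over the 33 pairs, 15 passed 0.05 by exact permutation tests. Much of this rested on the type of probe set. The 13 pairs with a probe set of type _x_at or _s_at, whose probes can match other sequences or each other's, had a median of 0.97, and the 20 pairs without one had a median of 0.19, of which 6 passed. How far pairs share probes was not tested.

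Single pairs differed widely. Among those without such a type, the pair of Mrps23 had a Pearson correlation of 0.97 and that of Mrpl41 0.99, while those of Mrpl50, Mrps14 and Mrps25 had 0.40, 0.03 and -0.39. The permutation test of each pair has n = 8 arrays.

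**Figure D5:**
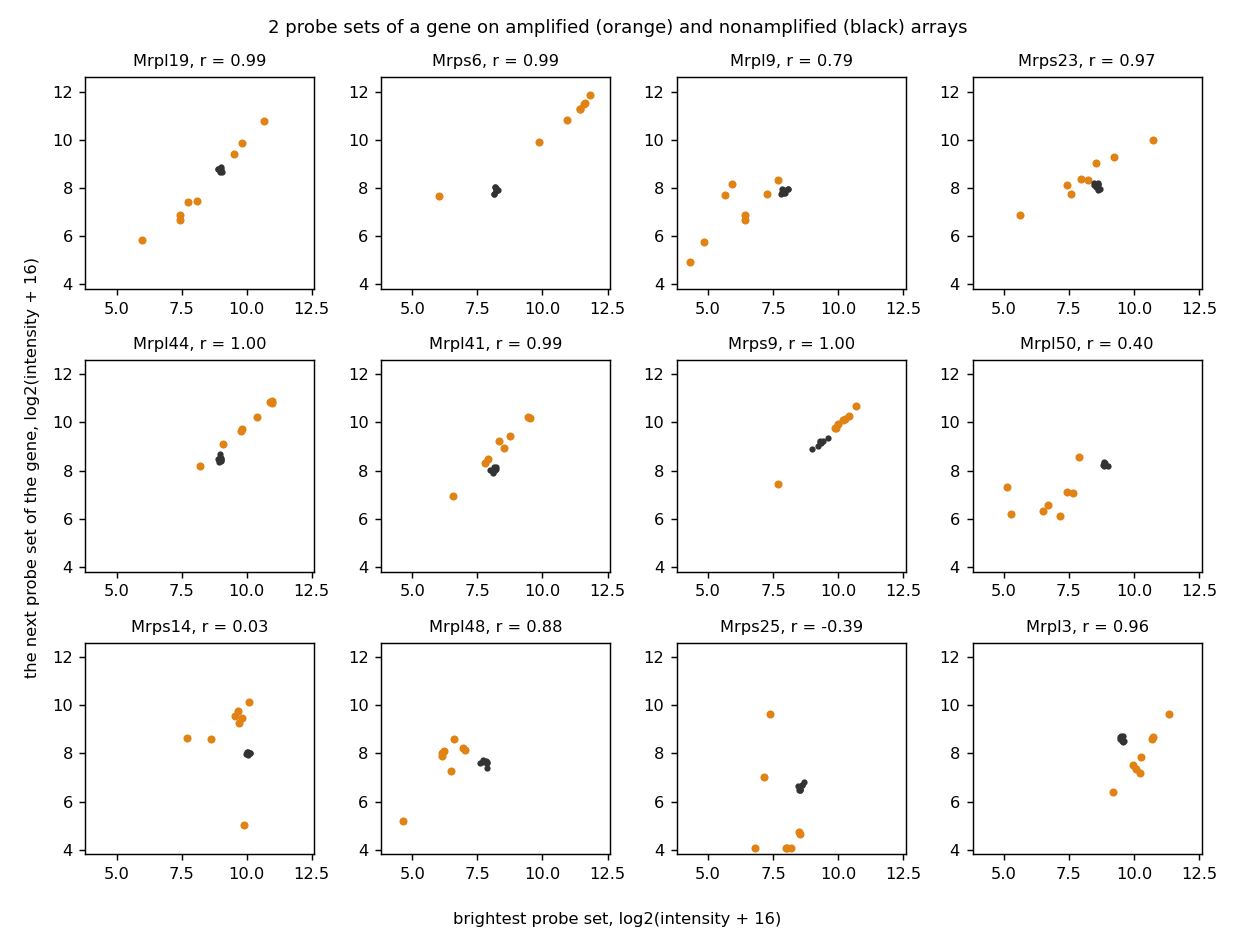
The brightest and the next probe set of a gene on each array, as log2(intensity + 16), for the 12 pairs whose smaller SD on amplified arrays was largest. Orange points are amplified and black points nonamplified arrays, and r is the Pearson correlation over the 8 amplified arrays. In most of these 12 panels the orange points follow a line, and in those of Mrpl50, Mrps14 and Mrps25 they do not.

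With the values as deposited, genes listed for mitochondrial translation and related functions were called lower more often than higher. The list holds 46 genes, most of them for mitochondrial translation, ribosomal RNA processing and assembly. It also holds genes for transcription or replication of mitochondrial DNA, such as Tfam, Polrmt and Twnk, and the ion transport gene Letm1. Of the 46, 5, or 10.9%, were higher and 21, or 45.7%, lower, against 23.1% and 30.3% of all genes. Tfam (1.38) and Polrmt (1.42) were among the 5. The remaining 20 were not called, and the median difference was -0.63. The excess of lower over higher calls was lost with arrays centred on their medians (9 higher and 8 lower). On the brighter 50% the counts were 9 and 10. These scalings also moved the background. Over all tested probe sets, 40.045% were higher and 20.269% lower with median centring, and 38.058% and 21.653% on the brighter 50%. With 9 of 46 genes higher, the list stayed below these shares of higher calls, while its lower calls were near the background. The median nonamplified intensity of that list was 208, below the members' 572, and the difference between the lists was not tested. Without amplified replicate 2, 9 genes were higher. Malsu1, an assembly factor of the large subunit, was higher by 3.13, while Mterf3, a factor in assembly and transcription, and Mtif2, the initiation factor that brings the first tRNA, were lower by -3.06 and -2.85.

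Of 6 other symbols listed for mitochondrial ribosome subunits, 4 were found. Another, Ict1, is an older symbol of the member Mrpl58. Gadd45gip1 was higher by 2.04 and Chchd1 by 1.20, Ptcd3 was lower by -1.50, and Dap3, with a difference of -0.20, was not called. Of 42 cytosolic ribosomal protein genes 41 were tested, and 28, or 68.3%, were higher and 5, or 12.2%, lower with the values as deposited, against 23.1% and 30.3% of all genes, a direction that flips to 7 higher and 18 lower after quantile normalization and to 4 and 10 when scaled on the hybridization controls. Over all tested probe sets, 30.7% were higher and 29.6% lower after quantile normalization, and 13.9% and 44.3% on the hybridization controls. With _x_at and _s_at probe sets left out it was 16 higher and 10 lower. The cytosolic genes had a median nonamplified intensity of 6988 and a median SD on amplified arrays of 0.10.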

How the data were processed

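Total RNA was extracted with an RNeasy kit and hybridised as biotin-labelled cRNA to Affymetrix mouse arrays, per the labels' protocols. The deposited values are linear intensities made by the authors, 1 for each array and probe set, from 1 to 23001. How probes were summarised and arrays scaled is not given in the sources used here. Gene names came from the supplied platform annotation.

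Groups follow the sample titles. Intensities were transformed as log2(intensity + 16), and the 64 control probe sets and those with a mean log2 value in the lowest 40% (an intensity of about 33.7) were left out. The remaining 27022 were fitted with lmFit and eBayes of limma 3.58.1 (R 4.3.3), 2-sided, with no covariates, 1 variance per probe set although the groups differ in spread, and Benjamini-Hochberg adjustment over all of them. The filter was first run on linear means and changed to log2 means after those results were seen, which left the member gene counts as they were (38 higher and 16 lower). The fit was tested on simulated data.

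The members and gene lists were chosen with earlier results of these data known. Named genes were the 6 brightest, the 6 highest and 6 lowest differences without overlap, the 4 most and 4 least variable on amplified arrays among members above the members' median nonamplified mean, up to 6 with opposite calls, the 3 Mrps18 paralogs, Mrps12, Mrpl12 and Mrps34, and at most 3 of each other list. No gene met the rule for dropouts on at least 4 amplified arrays, since it looked at each gene's brightest probe set. Promoter motifs were counted by exact match. Pair correlations used exact permutation tests. Alternatives were other pseudocounts, scalings, filters, probe set types and choices, weights per group, a replicate block and leaving out each array.

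Titles number the replicates alike in both groups, and whether the numbers pair arrays is not stated in them. The correlation of deviations between arrays of the same number was -0.008 to 0.018. For 3 amplified arrays the best match was the nonamplified array of their own number. Given the wide spread of the amplified arrays, such values cannot exclude a pairing, and a fit with a replicate block is given below. No scan date was used, so no batch was tested. Figures were drawn with matplotlib 3.10.9.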

Additional observations from a re-analysis of the deposited data

Results flagged for a closer look

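On the log scale used for the differences, a single array stood far from the other 7 of its group in 6 of 64 groups of values. These were examined by Dixon's criterion, which by chance marks about 1 in 20. The values given below are linear intensities, which need not meet the criterion themselves. Mrpl24 had an intensity of 119.1 on amplified replicate 5, with 390.5 to 832.7 on the others. Mrpl37 had 35.14 on amplified replicate 7, with 76.39 to 125.2 on the others. Mrpl50 had 497.8 on nonamplified replicate 1, with 430.2 to 455.1 on the others. Mrps18b had 701.4 on amplified replicate 5, with 1553 to 2644 on the others. Mrps18c had 1, the lowest value in the table, on amplified replicate 1, with 402.6 to 2797 on the others. Mrps34 had 351.7 on amplified replicate 8, with 2361 to 6449 on the others.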

How the results depend on the processing

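Counts of called member genes and member probe sets stayed within 1.5 times under every alternative run. The replicate block gave 37 genes higher and 15 lower, and of the named genes only Mrpl15 lost its call under it (adjusted p = 0.0788 by limma). The medians moved with scaling. Over genes the median log2 difference was 0.1509 after quantile normalization, 1.228 with median centring, 1.153 on the brighter 50% and 0.254 on hybridization controls. Over tested probe sets it was 0.1866, 0.9119, 0.8473 and 0.01915 in that order. Over all 156 it was 0.7457, 0.6804 and, reversed, -0.0294 under the last 3. Cytosolic genes counted 7 higher and 18 lower (quantile), 4 and 10 (hybridization controls) and 16 and 10 (no _x_at or _s_at), with 2 lower under median centring and 2 on the brighter 50%. The list for mitochondrial translation and related functions counted 9 higher and 8 lower under median centring and 9 and 10 on the brighter 50%. It counted 5 to 9 higher when 1 array was left out. Subunits with other symbols had 2 lower after quantile normalization. Dropouts numbered 1 at the 10th percentile, 8 at the 40th and 0 in the upper 25%. The sign turned for Mrpl12 (0.06528, median centring), Mrpl15 (-0.3951), Mrps18b (-0.001158) and Mrps2 (-0.07298) after quantile normalization, Mrps18c (0.3394, median centring, 0.2709, brighter 50%, and 0.03784, pseudocount 64) and Mrps30 (0.4073 and 0.3323, the first pair of these). Leaving out 1 array gave -0.4968 to 0.5561 for Mrps18c and -0.3495 to 0.1362 for Mrps30. The filter on linear means, run first and replaced by that on log2 means after its results were seen, gave the same calls for the named genes. The causes were not tested.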

Other observations

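A few probe sets share a Mrpl or Mrps symbol with another gene and were left out of the members. That of Ccdc142 and Mrpl53 had a mean intensity of 1967 on amplified and 296 on nonamplified arrays, a difference of 2.47 ± 0.28 (SE, adjusted p = 7.89e-07 by limma). That of Nme3 and Mrps34 had 847 and 241, a difference of 1.10 ± 0.52 (SE, adjusted p = 0.0828 by limma) that was not called. The pair shared by Mrpl30 and Gm6238 differed by 0.34 ± 0.31 (SE, adjusted p = 0.367 by limma) and 0.93 ± 0.26 (SE, adjusted p = 0.00525 by limma), so that 1 of the 2 was called.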
